A study of Mus musculus with 6 samples.

Results

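The 10 genes described here encode fibroblast growth factor (FGF) ligands and receptors: the ligand genes Fgf1, Fgf2, Fgf7, Fgf9, Fgf10 and Fgf18 and the receptor genes Fgfr1, Fgfr2, Fgfr3 and Fgfr4. They were taken by symbol from the 48397 gene symbols of the count files, and all 10 were present. RNA was sequenced in bulk from live EGFP-positive cells that had been sorted out of the lungs of PdgfraEGFP/+ mouse pups at postnatal day 8. The dams had been injected intraperitoneally at E18.5 (embryonic day) with 5E1, a monoclonal antibody against hedgehog ligands (3 libraries), or with control IgG (3 libraries). Pups of both groups carried 1 reporter allele of Pdgfra, a PDGF receptor gene, and cells without reporter signal were not sampled. Whether each library is 1 pup, a pool or a litter is not labelled. The p-values therefore speak of the spread among these 6 libraries, which may be technical in part. By its title, the study asks what hedgehog activity does to PDGF-driven growth of alveolar septa after birth.

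FGF ligands are secreted proteins that bind receptor tyrosine kinases together with heparan sulfate and signal largely through the RAS-ERK cascade, which induces its own inhibitors of the Sprouty and dual-specificity phosphatase families. In the developing mouse lung, mesenchymal Fgf10 and Fgf7 act mainly on the epithelial splice form of Fgfr2, whereas Fgf9, made by mesothelium and epithelium, acts on Fgfr1 and Fgfr2 in the mesenchyme. Fgf18 is a mesenchymal ligand of the growing mouse lung, and mice that lack both Fgfr3 and Fgfr4 do not form alveolar septa normally. The files count reads per gene, so the epithelial and mesenchymal splice forms of the receptors could not be told apart.

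Reads assigned to genes numbered 18857199 to 34318583 per 5E1 library and 16958433 to 28405457 per IgG library. The antibody's own readout moved in every library: Ptch1, a receptor gene that hedgehog activity induces, lay at 82.1 to 101.9 CPM (read counts scaled to library size) in 5E1 and at 405.3 to 415.0 CPM in IgG, and Hhip and Gli1, also induced by the pathway, had log2 fold changes of -2.37 and -1.12. Of 16198 genes tested with edgeR, 3757 (23.2%) were called at an adjusted p under 0.05, 12.1% higher and 11.1% lower in 5E1. Scaled by library size alone, the median of all genes shifted by -0.14 on the log2 scale and 28.6% of calls were higher, against 52.3% with the scaling used throughout. In bulk RNA, fewer cells of a type and less RNA per cell cannot be told apart. The libraries of 5E1 replicate 1 and IgG replicate 3 held 2 Y-linked reads each, against 3592 to 6913 in the other libraries, so the sexes were mixed within each group.

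Sorted cells of 5E1-exposed pups held fewer transcripts of Fgfr2 and Fgf18 and more of Fgf7, Fgf2 and Fgf10. Of the 10 genes, 3 were called higher and 2 lower, where 12.1% of all genes tested were higher and 11.1% lower. The other 5 (Fgf1, Fgf9, Fgfr1, Fgfr3 and Fgfr4) were not called. All 10 passed the low-count filter, with 598 to 28537 reads over a group. Libraries of the 2 groups did not overlap for 6 of the 10 genes, where 42.2% of all genes tested showed no overlap. The median log2 fold change was 0.052 over the 10 genes and 0.0009 over all genes tested.

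**Figure D1:**
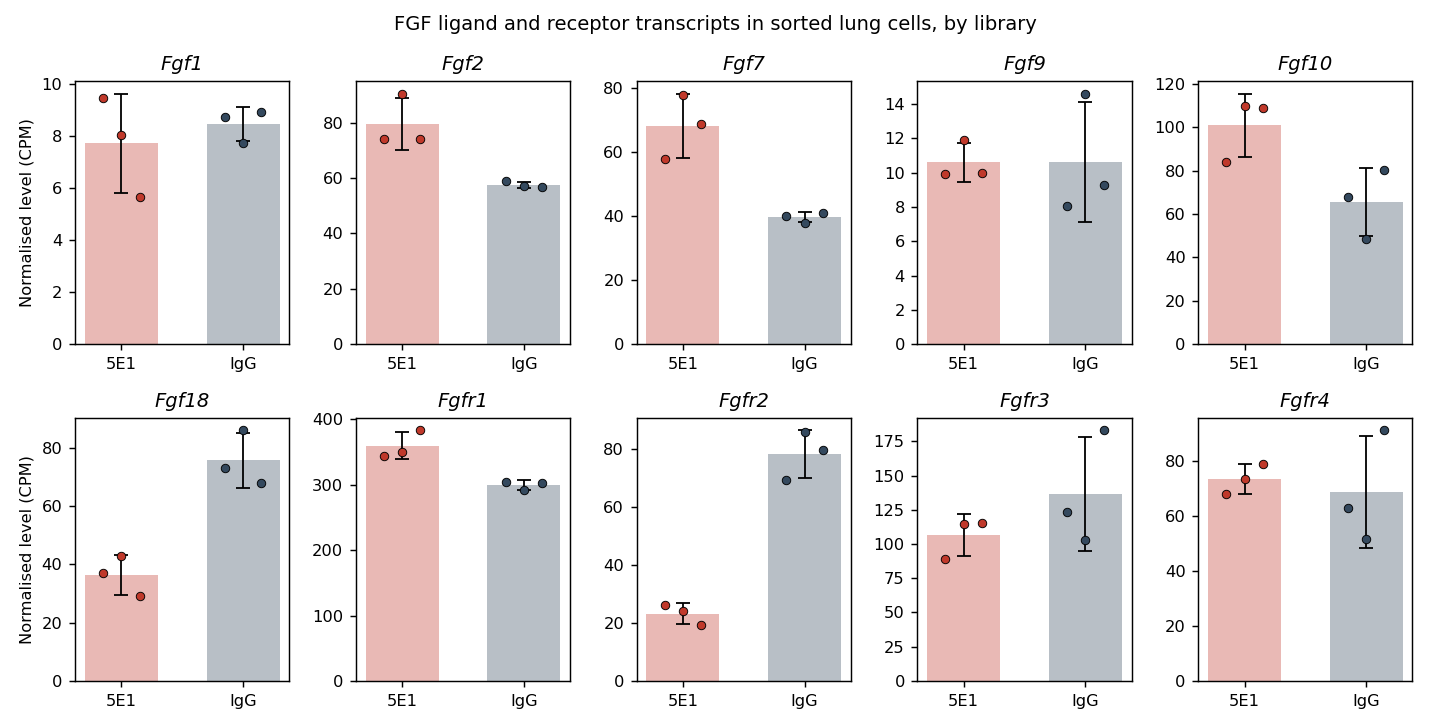
Normalised level (CPM, on TMM-scaled library sizes) of each FGF ligand and receptor gene in the 3 5E1 and the 3 IgG libraries. Points are libraries, bars are means and error bars are SD. Fgfr2 lay at 19.2 to 26.3 CPM in 5E1 and at 69.3 to 85.7 CPM in IgG, the widest gap of the 10 genes on a fold scale.

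Promoter sequence is shown for Fgfr2 and Fgf18, which fell together, and for Fgf7 and Fgf10, which rose together, since hedgehog signalling ends in the GLI transcription factors and their binding motif can be looked for there. RefSeq promoters on GRCm38.p6 (mm10) were matched for 8 of the 10 genes, and the 250 bases before the start are given, 5′ to 3′ on the gene's strand. The windows are chr7:130266809-130267058 for Fgfr2 and chr11:33147401-33147650 for Fgf18, both on the minus strand, and chr2:126034408-126034657 for Fgf7 and chr13:118714449-118714698 for Fgf10, both on the plus strand. Capitals mark the short GLI core CCACCC, which is part of the full GLI motif.
Fgfr2: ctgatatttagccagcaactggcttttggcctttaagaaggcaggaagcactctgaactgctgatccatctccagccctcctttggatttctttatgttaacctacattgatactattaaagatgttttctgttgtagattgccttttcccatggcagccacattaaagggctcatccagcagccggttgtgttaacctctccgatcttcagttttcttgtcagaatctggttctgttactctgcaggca
Fgf18: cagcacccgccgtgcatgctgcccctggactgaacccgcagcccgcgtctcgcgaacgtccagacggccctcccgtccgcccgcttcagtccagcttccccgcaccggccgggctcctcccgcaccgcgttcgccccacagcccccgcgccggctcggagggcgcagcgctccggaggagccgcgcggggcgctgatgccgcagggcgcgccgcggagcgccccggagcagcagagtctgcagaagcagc
Fgf7: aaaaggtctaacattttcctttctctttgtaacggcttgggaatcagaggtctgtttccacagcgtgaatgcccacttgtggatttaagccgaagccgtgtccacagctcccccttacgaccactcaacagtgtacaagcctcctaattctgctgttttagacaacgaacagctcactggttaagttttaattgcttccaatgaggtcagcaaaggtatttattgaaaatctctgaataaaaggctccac
Fgf10: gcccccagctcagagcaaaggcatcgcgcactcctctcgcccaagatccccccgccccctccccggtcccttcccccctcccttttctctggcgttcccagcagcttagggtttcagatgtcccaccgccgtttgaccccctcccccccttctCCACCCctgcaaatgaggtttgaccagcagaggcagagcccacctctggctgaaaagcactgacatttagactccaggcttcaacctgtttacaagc
The full GLI motif GACCACCCA, searched on both strands, was in none of the windows of the 8 genes, and 0.225% of all 32851 promoter windows of this length hold it. The core CCACCC was found once, in Fgf10 starting 97 bases before the start, and 28.1% of all windows hold it. These letters are a description of these windows only. The stretch of bases after the RefSeq start of Fgfr2 was not found unbroken in any GENCODE transcript of the gene. For Fgf10 the annotated gene begins further upstream.

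Among the ligand genes, Fgf18 fell. It measured 36.9, 43.0 and 29.3 CPM in 5E1 and 73.3, 86.1 and 67.9 CPM in IgG, with no overlap between the groups. The means were 36.4 ± 6.87 CPM in 5E1 and 75.7 ± 9.35 CPM in IgG (SD, n = 3 each), 2.08-fold lower in 5E1. Its log2 fold change was -1.06 (SE 0.14, 95% interval -1.37 to -0.74) with an edgeR adjusted p of 0.00086, and the differences within the Y-linked split were -1.16 and -0.88. Fgf18 lies on the minus strand of chromosome 11 (33117430 to 33147400), and its exons overlap no other annotated gene.

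Fgf7, which encodes keratinocyte growth factor, rose. It measured 57.9, 78.0 and 69.0 CPM in 5E1 and 40.2, 38.0 and 41.1 CPM in IgG. The IgG libraries lay within a few CPM of each other and below all 5E1 libraries. The means were 68.3 ± 10.1 CPM in 5E1 and 39.8 ± 1.59 CPM in IgG (SD, n = 3 each), 1.72-fold higher in 5E1, with a log2 fold change of 0.78 (SE 0.11, 95% interval 0.54 to 1.02) and an edgeR adjusted p of 0.000788. Within the Y-linked split the differences were 0.91 among libraries with Y-linked reads and 0.49 for the pair without. Fgf7 lies on the plus strand of chromosome 2 (126034658 to 126091185).

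Fgf10, which encodes the ligand that drives lung bud outgrowth in the mouse embryo, also rose, less firmly. It measured 83.95, 110.0 and 108.7 CPM in 5E1 and 67.9, 48.7 and 80.2 CPM in IgG. The lowest 5E1 library lay only just above the highest IgG library, and both had almost no Y-linked reads. The means were 100.9 ± 14.7 CPM in 5E1 and 65.6 ± 15.9 CPM in IgG (SD, n = 3 each), 1.54-fold higher in 5E1, with a log2 fold change of 0.62 (SE 0.18, 95% interval 0.20 to 1.04) and an edgeR adjusted p of 0.0448. The call ended without 5E1 replicate 2 (adjusted p 0.136) or 3 (0.135) and without IgG replicate 1 (0.103) or 2 (0.0586). It also ended with library size alone (0.0806) and with a term for Y-linked reads (0.0643), and within the Y-linked split the difference was 0.93 among libraries with Y-linked reads and 0.066 for the pair without. Fgf10 lies on the plus strand of chromosome 13 (118669791 to 118792115).

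Fgf2, which encodes basic FGF, rose by the smallest amount of the called genes. It measured 74.0, 90.5 and 74.1 CPM in 5E1 and 58.8, 56.95 and 56.8 CPM in IgG. The IgG libraries were nearly equal and all 5E1 libraries lay above them. The means were 79.5 ± 9.49 CPM in 5E1 and 57.5 ± 1.14 CPM in IgG (SD, n = 3 each), 1.38-fold higher in 5E1, with a log2 fold change of 0.47 (SE 0.095, 95% interval 0.26 to 0.68) and an edgeR adjusted p of 0.00568. Fgf2 lies on the plus strand of chromosome 3 (37348346 to 37410108) and shares 640 exon bases with Nudt6 on the opposite strand. Nudt6, a nudix hydrolase gene, had 12 to 43 reads per library, against 1017 to 3039 for Fgf2.

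Fgf1, which encodes acidic FGF, and Fgf9 were low and were not called. Fgf1 measured 9.45, 8.04 and 5.67 CPM in 5E1 and 8.72, 7.73 and 8.93 CPM in IgG (log2 fold change -0.14, 95% interval -0.58 to 0.30, edgeR adjusted p 0.659). Fgf9 measured 9.94, 11.9 and 9.98 CPM in 5E1 and 8.04, 14.6 and 9.29 CPM in IgG (log2 fold change 0.0082, 95% interval -0.30 to 0.32, edgeR adjusted p 0.983). The groups overlapped for both genes. Markers of mesothelium, a source of Fgf9 in the mouse lung, summed to 40.8, 121.2 and 55.7 CPM in 5E1 and 22.4, 13.2 and 45.9 CPM in IgG. Among 5E1 libraries replicate 2 had the most Fgf9 and the highest mesothelial sum, and among IgG libraries replicate 2 had the most Fgf9 and the lowest mesothelial sum. The part of mesothelial cells in the Fgf9 level was not tested.

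Among the receptor genes, Fgfr2 changed most. It measured 26.3, 24.2 and 19.2 CPM in 5E1 replicates 1 to 3 and 69.3, 85.7 and 79.5 CPM in IgG replicates 1 to 3. Every 5E1 library was far below every IgG library, and the spread within each group was small beside the gap. The means were 23.2 ± 3.68 CPM in 5E1 and 78.2 ± 8.29 CPM in IgG (SD, n = 3 each), 3.37-fold lower in 5E1. The log2 fold change was -1.75 (SE 0.13, 95% interval -2.03 to -1.47) with an edgeR adjusted p of 2.51e-05, the 24th smallest p of all genes tested. The fall was present in the 4 libraries with Y-linked reads (-1.84, difference of mean log2 CPM) and in the pair without (-1.60). In GENCODE M21 (mm10), Fgfr2 is a protein-coding gene on the minus strand of chromosome 7 (130162451 to 133123350), its far end being that of a single long transcript. Its exons share 314 bases with exons of Ctbp2, a transcriptional corepressor gene on the same strand, which fell too but by less (44.7 ± 2.84 CPM in 5E1, 59.0 ± 4.35 CPM in IgG, log2 fold change -0.40, edgeR adjusted p 0.0101).

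Fgfr1, the most abundant receptor gene here, measured 344.6, 350.8 and 383.4 CPM in 5E1 and 304.3, 291.3 and 303.1 CPM in IgG. All 5E1 libraries were above all IgG libraries, by a small margin. Its log2 fold change was 0.26 (SE 0.089, 95% interval 0.067 to 0.46) and its adjusted p by edgeR was 0.0543, so it was not called. DESeq2 (0.0235), limma-voom (0.0434) and a filter of at least 5 CPM (0.0278) did call it, and the estimate stayed positive in all 15 alternatives, from 0.12 to 0.29. Fgfr1 lies on the plus strand of chromosome 8 (25513654 to 25575718).

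Fgfr3 and Fgfr4, whose joint loss disturbs septation in mice, were not called. Fgfr3 measured 89.1, 114.9 and 115.5 CPM in 5E1 and 123.5, 103.3 and 183.1 CPM in IgG, with a log2 fold change of -0.36 (SE 0.21, 95% interval -0.86 to 0.14, edgeR adjusted p 0.270). Fgfr4 measured 68.1, 73.2 and 78.8 CPM in 5E1 and 62.9, 51.7 and 91.1 CPM in IgG, with a log2 fold change of 0.095 (SE 0.19, 95% interval -0.35 to 0.54, edgeR adjusted p 0.761). The groups overlapped for both genes, and both were highest in IgG replicate 3 and lower in IgG replicate 2 than in the other IgG libraries. IgG replicate 3 had no more than background Y-linked reads, and within the Y-linked split the 5E1 minus IgG differences ran apart: 0.029 for Fgfr3 and 0.41 for Fgfr4 among libraries with Y-linked reads, and -1.04 and -0.42 for the pair without. Fgfr3 shares 998 exon bases with G630022F23Rik on the opposite strand. That gene had 3 to 19 reads per library, against 1639 to 5043 for Fgfr3.

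**Figure D2:**
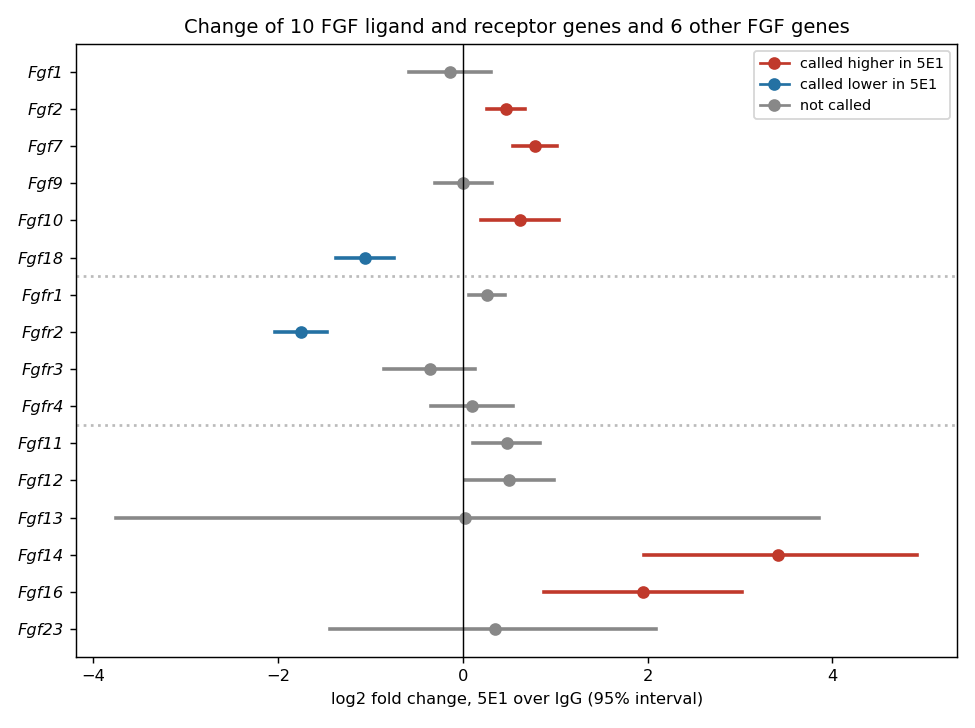
Log2 fold change, 5E1 over IgG, of the 6 ligand genes, the 4 receptor genes and the 6 other FGF genes that passed the low-count filter, from top to bottom. Points are edgeR estimates, lines are 95% intervals, and colour gives the call at an adjusted p under 0.05. Fgfr2 (-1.75) and Fgf18 (-1.06) lie left of 0, and Fgf7 (0.78), Fgf10 (0.62) and Fgf2 (0.47) lie right of it.

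Because a long transcript yields more reads, levels of different genes were compared as CPM per kilobase of the longest annotated transcript. In 5E1 libraries Fgfr1 stood highest (71.3 ± 4.13 CPM per kilobase, SD, n = 3), above Fgf18 at 33.5 ± 6.33. Fgf7 (25.6), Fgfr3 (25.1), Fgf10 (24.5) and Fgfr4 (22.1) followed, and neighbours from Fgf18 down to Fgfr4 overlapped in range. Below them came Fgf2 (13.3), Fgfr2 (5.24), Fgf9 (2.95) and Fgf1 (1.94), each apart from the next. In IgG libraries Fgf18 stood highest (69.7 ± 8.61 CPM per kilobase), followed by Fgfr1 (59.4 ± 1.42) and Fgfr3 (32.2 ± 9.77), with no overlap between Fgf18 and Fgfr1 or between Fgfr1 and Fgfr3. Fgfr3, Fgfr4 (20.6), Fgfr2 (17.65), Fgf10 (15.95) and Fgf7 (14.9) overlapped from neighbour to neighbour, above Fgf2 (9.63), Fgf9 (2.96) and Fgf1 (2.12), and Fgf9 and Fgf1 overlapped. The leading ligand and the leading receptor stood in opposite order in the 2 groups by this length. Per kilobase of all exons, Fgfr1 (34.9 to 38.8) and Fgf18 (24.7 to 36.2) overlapped in 5E1, with Fgfr1 higher in 2 of 3 libraries. By the longest transcript, Fgfr2 ranked 8th of 10 in 5E1 and 5th in IgG, and per kilobase of all exons 9th and 8th.

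The make-up of each family, as shares of its summed level per kilobase, differed in the same genes. Fgf18 made up 32.85% ± 4.23 of the ligand sum in 5E1 and 60.4% ± 4.86 in IgG (SD, n = 3 each). Fgf7 made up 25.1% ± 1.90 in 5E1 and 12.9% ± 1.04 in IgG, and Fgf10 made up 24.1% ± 3.04 in 5E1 and 13.9% ± 3.86 in IgG. Fgf2 made up 13.1% ± 0.148 in 5E1 and 8.36% ± 0.421 in IgG. No library of 5E1 overlapped one of IgG in the share of any of these 4 genes. Among receptors, Fgfr2 made up 4.28% ± 0.925 in 5E1 and 13.7% ± 2.43 in IgG, and Fgfr1 made up 57.7% ± 1.52 in 5E1 and 46.2% ± 4.96 in IgG. The ligand sum itself was 101.8 ± 12.35 CPM per kilobase in 5E1 and 115.3 ± 4.90 in IgG, and the receptor sum was 123.7 ± 7.77 in 5E1 and 129.9 ± 16.6 in IgG, with overlap between groups for both sums. Shares of 1 sum move together, so they are not separate results.

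**Figure D3:**
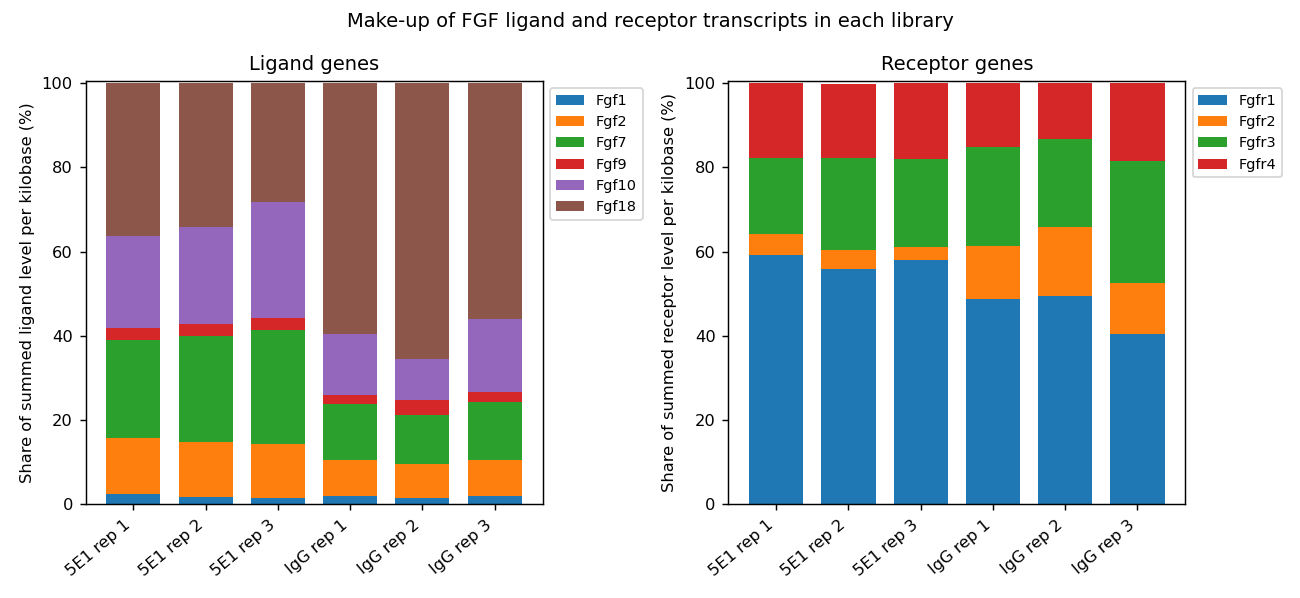
Share of each gene in the summed level per kilobase of the 6 ligand genes (left panel) and the 4 receptor genes (right panel), in percent, 1 stacked bar per library with 5E1 libraries left of IgG libraries. Fgf18 takes 28.1% to 36.3% of the ligand bar in 5E1 and 55.9% to 65.6% in IgG, and Fgfr2 takes 3.29% to 5.13% of the receptor bar in 5E1 and 12.1% to 16.5% in IgG.

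Ratios between members within a library do not depend on how libraries are scaled, and 4 pairs were examined. Fgfr1 over Fgfr2, per kilobase, was 11.5, 12.7 and 17.6 in 5E1 and 3.86, 2.99 and 3.35 in IgG, a ratio 4.06-fold higher in 5E1. Fgf18 over Fgf10 was 1.665, 1.48 and 1.02 in 5E1 and 4.09, 6.69 and 3.21 in IgG, 3.27-fold lower in 5E1. Fgfr4 over Fgfr3 was 0.976, 0.814 and 0.871 in 5E1 and 0.651, 0.639 and 0.636 in IgG. Which of these genes stood higher depended on the length used. Per kilobase of all exons, mean Fgfr4 was above mean Fgfr3 in 5E1 (20.7 against 14.9) and in IgG (19.4 against 19.1). Although neither Fgfr3 nor Fgfr4 was called, their ratio was 1.38-fold higher in 5E1, the groups did not overlap and the IgG libraries were nearly equal, so that both genes varied together across IgG libraries. For each of these 3 pairs the exact two-sided permutation p was 0.1, the smallest that 3 against 3 libraries allow, and 0.133 after Benjamini-Hochberg adjustment over the 4 pairs, so none passed. Fgf10 over Fgf7, the 2 ligands of epithelial Fgfr2, was 0.941, 0.915 and 1.02 in 5E1 and 1.098, 0.832 and 1.27 in IgG, with overlap (exact p = 0.6).

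**Figure D4:**
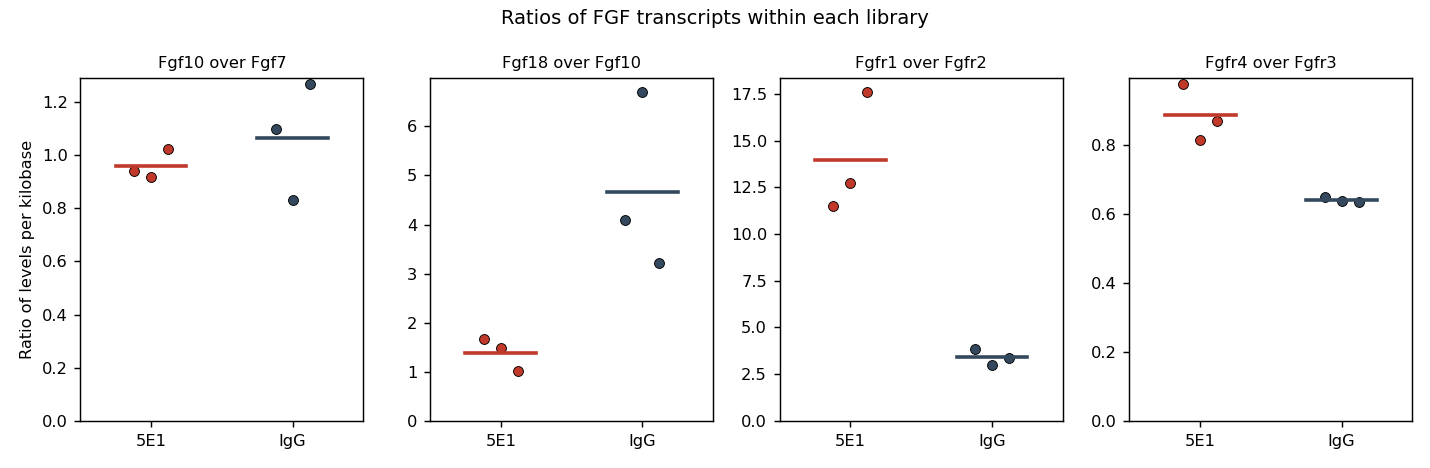
Ratio of levels per kilobase of the longest transcript for 4 pairs of FGF genes, in the 3 5E1 and the 3 IgG libraries. Points are libraries and horizontal lines are group means. Fgfr1 over Fgfr2 averages 13.95 in 5E1 and 3.40 in IgG, Fgf18 over Fgf10 averages 1.39 in 5E1 and 4.66 in IgG, Fgfr4 over Fgfr3 averages 0.887 in 5E1 and 0.642 in IgG, and Fgf10 over Fgf7 overlaps between groups.

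Of the 16 other FGF genes, most were barely detected. Fgf3, Fgf4 and Fgf6 had 0 reads in every library, 7 more had too few reads to be tested, and 6 were tested. Of these 6, 2 rose (12.1% of all genes tested rose) and none fell, and the median log2 fold change was 0.49. The 2 that rose, Fgf14 and Fgf16, passed the low-count filter only through their 5E1 libraries, where they were high. On their IgG libraries alone they would not have passed, so the count and median are selected in that direction. Fgf14, an intracellular FGF homologue that binds sodium channels, had 25, 108 and 92 reads in 5E1 and 15, 3 and 1 reads in IgG. The read counts did not overlap, and its log2 fold change was 3.41 (SE 0.66, 95% interval 1.97 to 4.92, edgeR adjusted p 0.00519). The log2 fold change was 4.81 without IgG replicate 1, which held most of the IgG reads. Fgf16, a secreted FGF related to Fgf9, had 28, 33 and 32 reads in 5E1 and 13, 3 and 8 reads in IgG, with a log2 fold change of 1.95 (SE 0.49, edgeR adjusted p 0.0156). Its call ended without 5E1 replicate 3 (0.0512), IgG replicate 2 (0.0572) or IgG replicate 3 (0.0601), and it was not tested at 5 CPM. Both genes lay at 3.39 CPM or less, so they add little to the FGF transcripts of these cells. Fgf11 and Fgf12, also of the intracellular group, were at 14.9 ± 3.10 and 6.05 ± 0.844 CPM in 5E1 and at 10.7 ± 0.389 and 4.27 ± 0.781 CPM in IgG and did not pass (edgeR adjusted p 0.0598 and 0.120).

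Of 9 co-receptors and binding proteins tested, 3 were higher and 1 was lower, where 12.1% of all genes tested were higher and 11.1% lower, and the median log2 fold change was 0.59. This median includes Fgfbp1, not called, which passed the low-count filter only through its 5E1 libraries, where it was higher. The higher count was 1 without 5E1 replicate 3 and 1 without IgG replicate 3, where 1337 of 16619 and 1372 of 16896 genes tested were higher. Flrt3 and Flrt2, leucine-rich repeat membrane proteins that bind FGF receptors, had log2 fold changes of 0.94 (edgeR adjusted p 0.00692) and 0.59 (0.0434). Fgfbp3, which encodes a carrier that frees FGFs from the matrix, measured 6.86 ± 1.47 CPM in 5E1 and 3.09 ± 1.102 CPM in IgG (SD, n = 3 each, edgeR adjusted p 0.0135). Fgfrl1, which encodes an FGF receptor without a kinase domain, fell and measured 26.5 ± 2.35 CPM in 5E1 and 35.9 ± 1.83 CPM in IgG (log2 fold change -0.44, edgeR adjusted p 0.0113). The call of Fgfbp3 ended without 5E1 replicate 3 (0.0631) or IgG replicate 3 (0.0538), and that of Flrt2 without 5E1 replicate 3 (0.106), IgG replicate 2 (0.131) or IgG replicate 3 (0.147) and with a term for Y-linked reads (0.056).

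Genes of heparan sulfate, the co-factor of FGF binding, fell more often than they rose: 7 of 24 tested members fell and 1 rose, where 11.1% of all genes fell, and the median log2 fold change was -0.24. The 4 syndecans, core proteins that carry heparan sulfate at the cell surface, were split. Sdc4 measured 348.5, 400.6 and 394.6 CPM in 5E1 and 156.1, 167.5 and 136.0 CPM in IgG. Every 5E1 library lay far above every IgG library (log2 fold change 1.32, SE 0.11, edgeR adjusted p 3.98e-05). Sdc3 measured 69.1, 39.4 and 52.5 CPM in 5E1 and 106.4, 125.3 and 118.9 CPM in IgG, and Sdc1 and Sdc2 fell as well (log2 fold changes -1.13, -0.61 and -0.44, edgeR adjusted p 0.00443, 0.00325 and 0.0172). Hs6st1, which encodes a 6-O-sulfotransferase, measured 73.7 ± 3.76 CPM in 5E1 and 101.3 ± 0.426 CPM in IgG (log2 fold change -0.46, edgeR adjusted p 0.00208). The other 3 that fell, Hs3st1 (-0.71) and Hs3st3b1 (-0.85), both 3-O-sulfotransferase genes, and Glce (-0.37), the glucuronic acid epimerase gene, were named after their values were seen. Only 3 members fell without IgG replicate 2, where 1084 of 16820 genes tested fell. The calls of Sdc2 (0.068), Hs3st1 (0.0542), Hs3st3b1 (0.055) and Glce (0.0743) ended there. Those of Hs3st3b1 (0.0797) and Glce (0.0601) also ended without 5E1 replicate 3, that of Hs3st3b1 without IgG replicate 3 (0.0699), and those of Sdc2 (0.0622) and Glce (0.0956) without IgG replicate 1. Without 5E1 replicate 2, 2 members rose.

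Downstream of the receptors, adaptors and RAS-ERK transducers moved little. Of 21 members tested, none rose and 3 fell, among them Map2k2 (log2 fold change -0.36) and Crkl (-0.25), which encode a MAP kinase kinase and an adaptor (edgeR adjusted p 0.0252 and 0.0438). The median log2 fold change was -0.074, and 11.1% of all genes tested fell. No member fell without 5E1 replicate 3 or without IgG replicate 1, 2 or 3, 1 fell without 5E1 replicate 1 or 2, and 8 fell with library size alone. Genes called lower among all tested changed in number too. They numbered 1791 of 16198 with the scaling used throughout, 3274 of 16198 with library size alone and 1084 of 16820 without IgG replicate 2.

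Of 14 feedback and target genes of FGF-ERK signalling, 2 rose and 1 fell, counts near the background of all genes tested (12.1% higher and 11.1% lower). The median log2 fold change was -0.024. Dusp5, which encodes an ERK phosphatase, rose (32.5, 59.6 and 38.5 CPM in 5E1, 17.9, 14.8 and 18.6 CPM in IgG, log2 fold change 1.35, SE 0.22, edgeR adjusted p 0.00401). Spry2, of the Sprouty family, rose too (103.0 ± 20.3 CPM in 5E1, 76.5 ± 7.30 CPM in IgG, edgeR adjusted p 0.0437). Its call ended without 5E1 replicate 1 (adjusted p 0.0513) or 2 (0.086), without IgG replicate 1 (0.0998), 2 (0.149) or 3 (0.0716), with library size alone (0.185) and with a term for Y-linked reads (0.0747). Il17rd, which encodes the membrane inhibitor Sef, fell and measured 36.7 ± 4.83 CPM in 5E1 and 54.0 ± 4.90 CPM in IgG (log2 fold change -0.56, edgeR adjusted p 0.00602). Without 5E1 replicate 1 or 2, 2 members fell. Dusp4, another ERK phosphatase gene, had a log2 fold change of 0.52 and did not pass (edgeR adjusted p 0.0608). It passed in 5 of 15 alternatives, among them DESeq2 (0.0441) and the fit without IgG replicate 3 (0.0254).

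**Figure D5:**
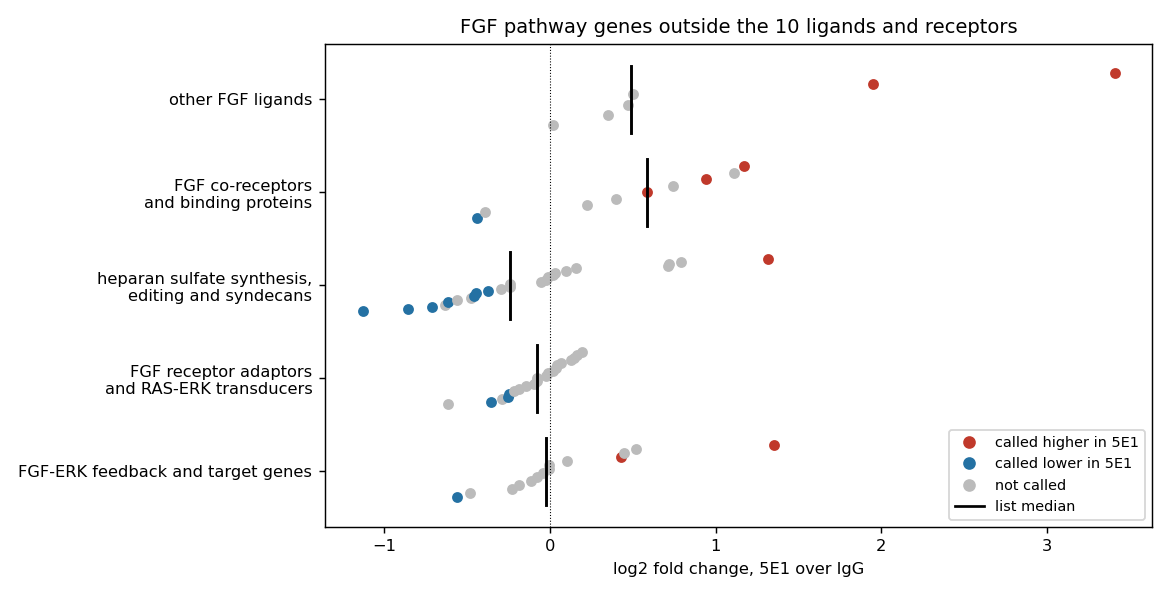
Log2 fold change, 5E1 over IgG, of the tested members of 5 lists of FGF pathway genes. Each point is a gene, colour gives the edgeR call at an adjusted p under 0.05, and black bars are list medians, which run from -0.24 for heparan sulfate genes to 0.59 for co-receptors and binding proteins. Fgf14 (3.41) is the rightmost point and Sdc3 (-1.13) the leftmost.

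Marker genes of cell types were set beside the FGF results. Pdgfra, whose reporter the cells were sorted by, is itself on the fibroblast list, so not every list stands for cells outside the sort. The counts of calls stand against 12.1% higher and 11.1% lower among all genes tested. The 8 fibroblast markers summed to 59020 to 104800 CPM in 5E1 and 46460 to 64660 CPM in IgG, with 3 of 8 called higher. Most of this sum came from Col3a1 (means 32130 CPM in 5E1, 20590 in IgG), Col1a1 (23090, 14750) and Col1a2 (21510, 14960). The 3 called were Pdgfrb, Dcn and Col3a1, and Pdgfra and Tcf21 were among those not called (edgeR adjusted p 0.0742 and 0.369). Smooth muscle and myofibroblast markers summed to 4571 to 5772 CPM in 5E1 and 9526 to 10800 CPM in IgG, with 6 of 7 called lower (all but Des), the direction of Fgf18 and Fgfr2. Their part in those results was not tested. No marker on the epithelial lists was called lower. Alveolar type 2 markers summed to 210.0 to 519.7 CPM in 5E1 and 198.9 to 219.9 CPM in IgG (1 of 7 higher). Alveolar type 1 markers summed to 89.5 to 129.5 CPM in 5E1 and 55.5 to 64.96 CPM in IgG (3 of 6 higher). Airway and general epithelial markers summed to 268.2 to 1034 CPM in 5E1 and 246.8 to 503.9 CPM in IgG (0 of 7 called). Most of the airway sum was Scgb1a1 (255.5 to 998.5 CPM in 5E1, 239.2 to 488.9 CPM in IgG). Leukocyte markers summed to 209.7 to 363.6 CPM in 5E1 and 94.5 to 115.8 CPM in IgG, with 4 of 8 tested members higher, the direction of Fgf2, Fgf7 and Fgf10. That direction was not particular to leukocytes (median log2 fold change 0.97). Medians were also positive for fibroblast (0.46), alveolar type 2 (0.66), alveolar type 1 (0.76), airway (0.61), endothelial (0.65) and mesothelial (1.39) markers. Endothelial markers summed to 138.4 to 305.7 CPM in 5E1 and 121.0 to 148.3 CPM in IgG, with 1 of 8 higher, and mesothelial markers were higher in 1 of 5 tested. No defining marker of these lists was at 0 in all libraries, and the T cell marker Cd3e had too few reads to be tested. The part of these cells in the FGF results was not tested.

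The genes whose levels across the 6 libraries ran closest to those of Fgf10 and Fgf18 were found among 10442 genes of at least 5 CPM, by the root mean square difference between log2 CPM values centred over the libraries. For Fgf10 these were Nuak1, a kinase gene (0.054), Pcx, the pyruvate carboxylase gene (0.080), and Gadd45g, a stress response gene (0.084). Nuak1 averaged 105.2 CPM in 5E1 and 67.6 CPM in IgG. For Fgf18 they were Trib2, a pseudokinase gene (0.036), Tmeff1, which encodes a membrane protein with follistatin-like domains (0.081), and Zfp60, a zinc finger gene (0.10). Trib2 averaged 60.9 CPM in 5E1 and 125.5 CPM in IgG. This is a likeness of level over 6 libraries and no more.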

How the data were processed

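Per the labels' protocols, live EGFP-positive lung cells were sorted and RNA libraries were made with a stranded mRNA kit. For each library the authors deposited whole-number counts of reads by gene. HTSeq 0.6.0 and STAR 2.5.0c, beside DESeq2 1.10.0, R 3.5.1, bedtools 2.17.0, Picard 1.126 and the mm10 build, are named without a role per the submitters' processing notes. Annotation, strandedness of counting and treatment of duplicates: not given in the sources used here. Reads of antisense or overlapping genes may therefore be included, or be lost among the reads set aside as ambiguous (1.94% to 2.66% per library). The 5 summary lines per file (36.4% to 54.7% of reads, mostly unaligned) name no gene and were left out.

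Genes were filtered with filterByExpr (minimum count 10, minimum total 15), scaled by TMM and tested with edgeR 4.0.16 in R 4.3.3 (robust quasi-likelihood fit, group as the only term, two-sided), with Benjamini-Hochberg adjustment over all 16198 genes tested. CPM are on TMM-scaled library sizes. Log2 fold changes (5E1 relative to IgG) used edgeR's prior count of 0.125, and 95% intervals come from the same fit. Lengths and positions come from GENCODE M21. No replicate pair agreed within counting noise (chi-square over degrees of freedom 14.8 to 50.5). In simulated counts, 200 genes were drawn to change, against 3757 called in the data. Of 97 tested genes that changed by 1 on the log2 scale 68.0% were recovered, and of 97 that changed by 2, 88.7%. There were 13 false calls among 15686 unchanged genes. These rates hold for the simulated setting only, since the adjustment depends on how many genes change. Alternatives were DESeq2 1.42.0, limma-voom (limma 3.58.1), RLE factors, scaling by library size alone, 2 other low-count filters, no robust estimation, a replicate block, a term for Y-linked reads and each library left out.

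The genes and lists were chosen with earlier results of these data known. Named are the 10 genes, Gli1, Ptch1 and Hhip, up to 4 members per pathway list with the smallest p (2 of these are not reported here), and for Fgf10 and Fgf18 the 3 genes of most similar level across libraries. No set test was run, since counts and medians describe the lists.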

Additional observations from a re-analysis of the deposited data

How the results depend on the processing

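The calls of Fgfr2, Fgf18, Fgf7 and Fgf2 held in all 15 alternatives, with log2 fold changes of -1.89 to -1.64 for Fgfr2, -1.20 to -0.92 for Fgf18, 0.64 to 0.88 for Fgf7 and 0.33 to 0.52 for Fgf2. Fgf10 stayed higher in all 15 (0.44 to 0.78) but lost its call in 6. With 1 library left out, genes called overall numbered 2305 to 3704, and FGF genes called higher and lower numbered 2 to 3 and 2 to 2. Genes that were not called changed sign: Fgf1 without 5E1 replicate 3 (0.037, range -0.30 to 0.037 with 1 library left out), Fgf9 with library size alone (-0.14), with no low-count filter (-0.0055) or with 1 library left out (-0.17 to 0.29), and Fgfr4 with library size alone (-0.054) or without IgG replicate 2 (-0.074, range -0.074 to 0.35). The log2 difference in Fgf10 over Fgf7, -0.13 with all libraries, was -0.30 to 0.0049 with 1 library left out, the highest without IgG replicate 3.

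With 1 library left out, members called higher numbered 1 to 3 for the other FGF ligands, 1 to 3 for co-receptors, 1 to 2 for heparan sulfate genes and 1 to 2 for feedback genes, and members called lower 3 to 8 for heparan sulfate genes, 0 to 1 for transducers and 1 to 2 for feedback genes. Among all genes tested, 1221 to 1885 were then higher and 1073 to 1819 lower, against 1966 and 1791 with all libraries. Of the other FGF ligands 1 rose at 5 CPM. Of heparan sulfate genes 2 rose with DESeq2, limma-voom, no robust estimation or the replicate block. Of transducers 8 fell with library size alone and 1 with the replicate block. Of feedback genes 1 rose with library size alone or with the term for Y-linked reads, and 2 fell with library size alone. Among all genes tested, 1312 rose and 3274 fell with library size alone, against 1966 and 1791 with the scaling used throughout. The cause was not tested.

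Same-numbered libraries did not vary together (correlations of -0.11 to -0.037 between their deviations), so the replicate number only names a library. With it as a block, 3220 genes were called in place of 3757, and 3 FGF genes rose and 2 fell. Spry2 was not called with the block (edgeR adjusted p 0.0911).

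Per kilobase of all exons instead of the longest transcript, levels (CPM per kilobase) were lower, by construction. In 5E1 they were 1.41 for Fgf1, 11.7 for Fgf2, 21.0 for Fgf7, 2.28 for Fgf9, 36.4 for Fgfr1, 2.25 for Fgfr2, 14.9 for Fgfr3 and 20.7 for Fgfr4. In IgG they were 1.55 for Fgf1, 8.48 for Fgf2, 12.25 for Fgf7, 30.3 for Fgfr1, 7.57 for Fgfr2, 19.1 for Fgfr3 and 19.4 for Fgfr4. Fgfr1 then ranked 1st in 5E1, with a range that overlapped that of Fgf18, and 2nd in IgG. Fgfr2 ranked 9th in 5E1 and 8th in IgG. Depth limits Fgf14 and Fgf16, with 1 to 108 reads per library. Where Fgf14 or Fgf16 did not pass a stricter filter it has no value there.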
